A study of Homo sapiens with 2 samples.

Results

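The genes described here encode the machinery that brings proteins into the endoplasmic reticulum (ER), attaches N-linked sugars to them, folds them and removes those that fail to fold. They are 46 genes listed by function, with earlier results of these data known, and all 46 were found by symbol among the 55773 gene symbols of both tables. ALG9 had 2 annotated rows, which were summed. RNA was sequenced from 2 samples of the human cell line NCI-H2030, labelled lung adenocarcinoma, 1 given SC and 1 given miR-494-3p AS. The labels spell out neither abbreviation and give no dose or time, and the samples are called SC and AS below. Both come from the same line with no other agent or genotype named, and the title of the series concerns the microRNA miR-494-3p and the protein SET/I2PP2A.

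With 1 library in each group there is no replicate error, so every difference below is one between these 2 libraries, with no test and no p-value. The annotated genes summed to 973681 in SC and 968917 in AS in TPM, a transcript's share scaled for its length. The coverage per unit of FPKM, a measure of aligned bases, was 3.62 in SC and 3.54 in AS. No read counts were used here, so counting error could not be computed. Of the markers of an epithelial line, the keratins KRT8 and KRT18 were at 486 and 558 TPM in SC, whereas CDH1, KRT19 and the lung lineage gene NKX2-1 were at or near 0 in both libraries. Of the markers of leukocytes, PTPRC and CD3E were listed at 0 in both libraries and CD14 stood at 9.02 TPM in SC and 4.21 in AS. The 4 fibroblast markers summed to 30.6 and 23.0 TPM, led by COL1A1, and the 3 endothelial markers found in the tables summed to under 1 TPM in each library.

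Proteins enter the ER through the SEC61 channel while they are made or shortly after. The oligosaccharyltransferase then transfers a sugar chain, preassembled on the lipid dolichol by the ALG enzymes, to asparagine residues. Calnexin and calreticulin bind the trimmed sugar while protein disulfide isomerases form disulfide bonds, and chains that do not fold are pulled back to the cytosol and degraded. When unfolded protein builds up, the sensors IRE1 (gene ERN1), ATF6 and PERK raise the transcription of chaperones, in part through XBP1. Secretory cells of the lung depend on this machinery.

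As a whole the 46 genes stood where the median gene stood. The ratio used is log2((AS + 1)/(SC + 1)) in TPM, which understates the ratio of genes of low level, and genes whose 2 values averaged 1 TPM or more were taken as measured. This left 45 of the 46, the exception being ALG10, a glucosyltransferase of sugar chain assembly, at 0.306 TPM in SC and 0.825 in AS. Of the 45, 3 were at least 2-fold higher in AS (6.67%), against 16.5% of 13669 measured genes. None was 2-fold lower, against 2.17% of measured genes. The median log2 ratio was 0.28 over the members and also 0.28 over all measured genes, with 34 of the 45 above 0 and 11 below, against 66.2% and 33.8% of all measured genes. In coverage 2 members were at least 2-fold higher, SEC63 and UGGT1 (background 9.47%), and none was 2-fold lower (background 0.863%). In the assembled loci 5 were at least 2-fold higher, MAGT1, ALG5, SSR1, UGGT1 and SEL1L (background 16.0%), and none was 2-fold lower (background 2.91%). The loci compared were unlike in extent for SSR1, UGGT1 and SEL1L. They covered 40.5%, 47.8% and 56.9% of the gene in SC, and 55.9%, 99.99% and 100% in AS. In bulk RNA, fewer cells of a type and less RNA per cell cannot be told apart.

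The members differed by role. The 7 genes of sugar chain assembly had the highest median, at 0.68, and the 9 genes of the oligosaccharyltransferase and the 3 of the lectin chaperone cycle had medians of 0.58. The 4 listed luminal folding factors, known to be induced by ER stress, had the lowest, with a median of -0.67, followed by the 6 disulfide genes at -0.15. The translocon stood at 0.17, ER-associated degradation at 0.28 and the stress sensors at 0.24. The median GC content of the roles ran from 43.8% to 57.9%. Relative to coding genes of like GC content, on the scale described below, the order differed. The disulfide genes were lowest (-0.59), then the luminal factors (-0.43), the sensors (-0.40), the translocon (-0.34) and the lectin cycle (-0.32). Degradation stood at -0.23, the oligosaccharyltransferase at 0.02 and chain assembly at 0.15. Read against the median of all genes, 22 members lay above it and 23 below, among them 7 of the 9 oligosaccharyltransferase genes above, 5 of the 7 of chain assembly, 3 of the 9 of the translocon, 2 of the 3 of the lectin cycle, 2 of the 4 of degradation, 1 of the 3 sensors, 2 of the 6 disulfide genes and none of the 4 luminal factors. Because the most abundant members were lower in AS, the summed level of the 45 genes was 7245 TPM in SC and 5853 in AS.

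**Figure D1:**
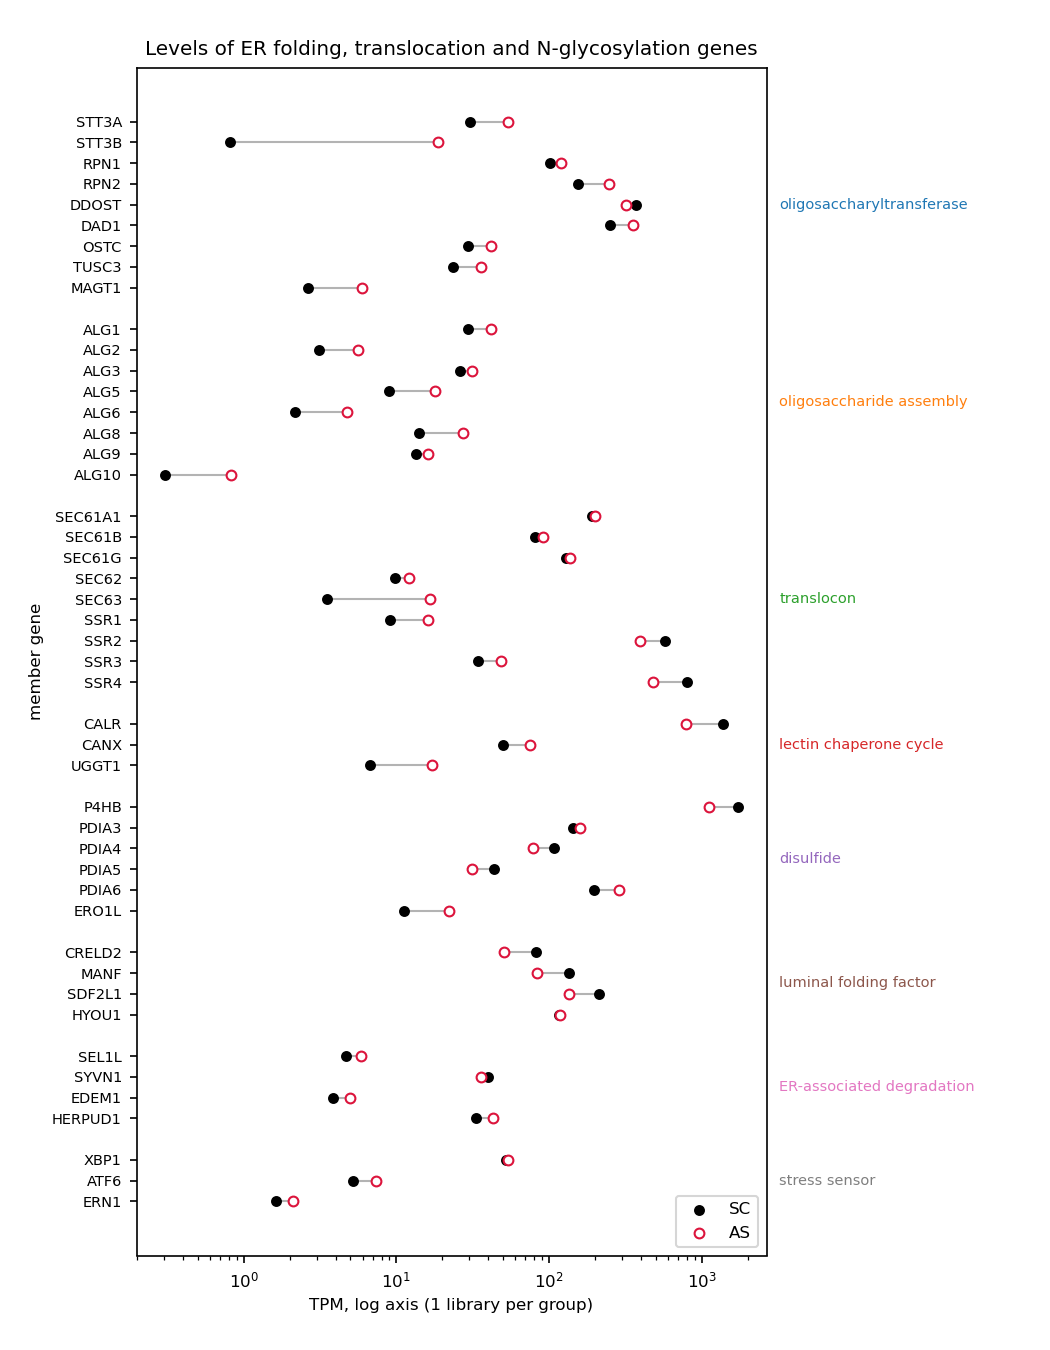
Level of each of the 46 genes in TPM (log axis) in the SC library (filled points) and the AS library (open points), grouped by role. The most abundant genes, P4HB, CALR, SSR4 and SSR2, lie to the left in AS, and the widest gap is that of STT3B, at 0.818 and 18.8 TPM.

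The oligosaccharyltransferase was higher in AS in 8 of its 9 listed genes (7 after centring on all genes), where 66.2% of all measured genes were higher, and only STT3B passed 2-fold. Relative to coding genes of like GC content, on the scale described with base composition below, 5 of the 9 lay above 0 and the median was 0.02. The enzyme exists in 2 forms, one built on the catalytic subunit STT3A, which acts while the chain passes through the channel, and one built on STT3B, which acts mostly afterwards. STT3A was at 30.5 TPM in SC and 53.7 in AS (log2 ratio 0.80). Its ratio was 0.50 in coverage, 0.39 in the assembled locus and 0.02 relative to coding genes of like GC content. STT3A overlaps CHEK1 on its own strand, which was at 6.26 and 17.5 TPM. STT3B (ENSG00000163527, chromosome 3, 31574130 to 31679112, plus strand, GRCh37) was at 0.818 TPM in SC and 18.8 in AS, a log2 ratio of 3.45 and the largest among the members. In TPM of the annotated rows, which is per length, STT3A was 37.3 times as abundant as STT3B in SC and 2.85 times in AS. The value for SC rests on the low annotated row of STT3B. In the assembled loci STT3A was at 40.8 TPM in SC and 53.7 in AS, and STT3B at 9.10 and 18.8. The shift between the 2 forms was thus much smaller in the loci.

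The size of the STT3B difference depended on which deposited value was read. Its deposited coverage, a read depth, was 1.09 in SC and 2.77 in AS, a log2 ratio of 0.74 once put on the TPM scale. Coverage per FPKM of STT3B was 2.63 in SC and 0.312 in AS, against most common values of 3.62 and 3.54 in the libraries. The AS locus described below, also at 18.8 TPM, had a coverage of 27.5. The ratio of 0.74 thus does not rest on like values in the 2 libraries. Coverage per FPKM differed over 1.5-fold between libraries in 4 of 45 members, STT3B, SEC62, SEC63 and MAGT1. The tables also list loci assembled from the reads without regard to the annotation. In SC 2 such loci lay within STT3B, at 1.09 and 9.10 TPM, and the larger covered only the last 21.4% of the gene. In AS 1 locus covered 99.9% of it, at 18.8 TPM. Read against the larger SC locus, the log2 ratio was 0.97. The annotated row of STT3B in SC, at 0.818 TPM, was thus lower than the assembled locus within the same gene.

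**Figure D2:**
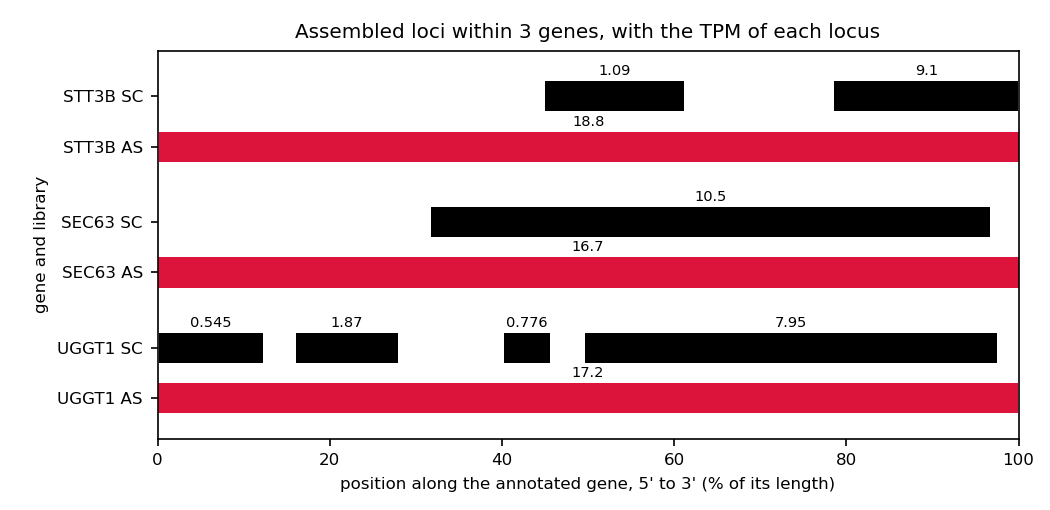
Assembled loci within the 3 genes past 2-fold in TPM, as bars along the annotated gene from 5′ to 3′ (% of its length), black for SC and red for AS, with the TPM of each locus above its bar. In AS each gene is spanned by 1 locus, and in SC the locus of the highest TPM leaves out the 5′ part of the gene.

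MAGT1 and TUSC3 are alternative oxidoreductase subunits of the STT3B form. MAGT1 was at 2.63 TPM in SC and 5.98 in AS (0.95), and TUSC3 at 23.7 and 35.9 TPM (0.58). TUSC3 was 9.01 times as abundant as MAGT1 in SC and 5.997 times in AS. For MAGT1 the log2 ratio was only 0.33 in coverage but 1.12 in the assembled locus.

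The subunits shared by both forms were more abundant than the catalytic ones. DDOST was at 372 TPM in SC and 320 in AS, the only one of the 9 listed genes of the complex with a ratio below 0 (-0.22). Among the further genes described below, subunits of the enzyme, not all of them shared by both forms, were also lower. These were OST4 (640 and 486 TPM, -0.39), TMEM258 (157 and 133 TPM, -0.24) and KRTCAP2 (483 and 459 TPM, -0.07). They are named after their values were seen. DAD1 was at 251 and 355 TPM (0.50). RPN2 was at 154 and 245 TPM (0.67). RPN1 was at 101 and 119 TPM (0.24). OSTC, a subunit of the STT3A form, was at 29.5 and 41.7 TPM (0.48). DDOST was 12.2 times as abundant as STT3A in SC and 5.95 times in AS.

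The 7 measured ALG genes, which build the sugar chain on dolichol, were all higher in AS in TPM (5 after centring on all genes, and 5 relative to coding genes of like GC content) and none passed 2-fold. ALG5, which makes the glucose donor dolichyl phosphate glucose, was at 8.91 TPM in SC and 17.8 in AS (0.93). The glucosyltransferases ALG8 and ALG6 followed, ALG8 at 14.1 and 27.2 TPM (0.90) and ALG6 at 2.18 and 4.77 TPM (0.86). The mannosyltransferases were closer to equal in TPM. ALG2 was at 3.10 and 5.57 TPM (0.68), ALG1 at 29.5 and 41.8 TPM (0.49), ALG3 at 26.1 and 31.3 TPM (0.25) and ALG9 at 13.5 and 16.1 TPM (0.24). Relative to coding genes of like GC content this order did not hold. ALG2 (0.24), ALG1 (0.23) and ALG3 (0.21) then lay above ALG5 (0.15), ALG8 (0.13) and ALG6 (-0.03), and ALG9 (-0.66) below them. For ALG3 the direction turned in coverage (-0.16) and in the assembled locus (-0.04). ALG3 overlaps EIF2B5 on the opposite strand, which was at 32.1 and 36.1 TPM, and no source used here says whether reads were assigned by strand.

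In the translocon the channel itself hardly differed. SEC61A1, the pore, was at 193 TPM in SC and 199 in AS (0.05), SEC61G at 128 and 138 TPM (0.10) and SEC61B at 80.8 and 91.0 TPM (0.17). SEC62 and SEC63 help chains that enter after they are made, and SEC63 also recruits the chaperone BiP to the channel. SEC63 (ENSG00000025796, chromosome 6, 108188960 to 108279393, minus strand, GRCh37) was at 3.53 TPM in SC and 16.7 in AS, a log2 ratio of 1.96. Coverage gave a ratio of 1.39 and the assembled locus one of 0.62, and that locus spanned 64.9% of the gene in SC (10.5 TPM) and 100% in AS (16.7 TPM). SEC62 was at 9.81 and 12.1 TPM (0.28), with a ratio of 0.84 in coverage.

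The 4 genes of the translocon-associated protein complex, which sits beside the channel and helps some chains to enter, went in both directions. SSR4, at 798 TPM in SC and 483 in AS (-0.72), and SSR2, at 578 and 396 TPM (-0.54), were lower. SSR3, at 34.2 and 48.6 TPM (0.49), and SSR1, at 9.02 and 16.1 TPM (0.77), were higher. The pair that was lower was also the more abundant one, and SSR4 was 88.4 times as abundant as SSR1 in SC and 29.99 times in AS. The same signs held in coverage and in the assembled loci for each of the 4 genes. Their transcripts differ in base composition, with a GC content of 62.9% for SSR4, 52.1% for SSR2, 40.6% for SSR1 and 40.0% for SSR3. SSR4 overlaps IDH3G on the opposite strand, which was at 116 and 39.1 TPM.

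The 3 genes of the lectin chaperone cycle also split. CALR, the soluble calreticulin (ENSG00000179218, chromosome 19, 13049392 to 13055303, plus strand, GRCh37), was at 1376 TPM in SC and 791 in AS, 1.74-fold lower and the lowest log2 ratio of all members (-0.80). Coverage and the assembled locus gave -0.80 as well. CANX, the membrane-bound calnexin that binds the same sugar, was at 49.9 and 75.3 TPM (0.58). UGGT1, the sensor that puts a glucose back on misfolded glycoproteins (ENSG00000136731, chromosome 2, 128848774 to 128953251, plus strand, GRCh37), was at 6.74 TPM in SC and 17.2 in AS, a log2 ratio of 1.24. UGGT1 was past 2-fold in all 3 measures, with 1.17 in coverage and 1.03 in the assembled locus. That locus was 1 of 4 in SC and covered 47.8% of the gene (7.95 TPM), against 99.99% in AS. The ratio was under 2-fold after centring (0.95), after trimmed mean scaling (0.94), with a pseudocount of 5 (0.92) and relative to coding genes of like GC content (0.58). CALR was 27.6 times as abundant as CANX in SC and 10.5 times in AS.

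Among the disulfide genes, 3 were lower and 3 higher in AS. P4HB, the protein disulfide isomerase, was the most abundant member in both libraries, at 1726 TPM in SC and 1112 in AS (-0.63). PDIA4 was at 107 and 78.1 TPM (-0.45) and PDIA5 at 43.9 and 31.3 TPM (-0.47). PDIA6 was at 198 and 286 TPM (0.53), and PDIA3, the isomerase that works with calnexin and calreticulin, was at 143 and 159 TPM (0.15). ERO1L, the oxidase that recharges the isomerases, was at 11.3 and 22.02 TPM (0.91), but at 0.43 in coverage and 0.45 in the assembled locus. PDIA3 has copies in the genome, of which PDIA3P1 was at 16.8 and 24.7 TPM, so that reads could be split between them.

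Of the listed luminal factors known to be induced by ER stress, 3 of 4 were lower in AS, by similar amounts in TPM. Of all measured genes, 33.8% were lower. Other chaperones of the ER were higher in TPM, among them PDIA6 (0.53), HSPA5 (BiP, 0.63) and HSP90B1 (GRP94, 0.60). The last 2 belong to the 25 other disulfide and chaperone genes described below, of which 18 were above 0 and 7 below. SDF2L1, which binds HSP40 cochaperones, was at 213 TPM in SC and 135 in AS (-0.65). MANF, a small secreted and luminal stress protein, was at 135 and 84.0 TPM (-0.68). CRELD2 was at 81.9 and 50.4 TPM (-0.69). The ratios of these 3 lay between -0.71 and -0.65 in TPM, coverage and assembled locus, which are measures of the same reads. Relative to coding genes of like GC content they were less alike, at -0.37 for SDF2L1, -0.50 for CRELD2 and -0.73 for MANF. HYOU1, the large HSP70-like chaperone and nucleotide exchange factor of BiP, was at 115 and 118 TPM (0.03), with -0.21 in coverage and -0.20 in the assembled locus. CRELD2 overlaps ALG12 on the opposite strand, which was at 16.5 and 11.3 TPM.

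**Figure D3:**
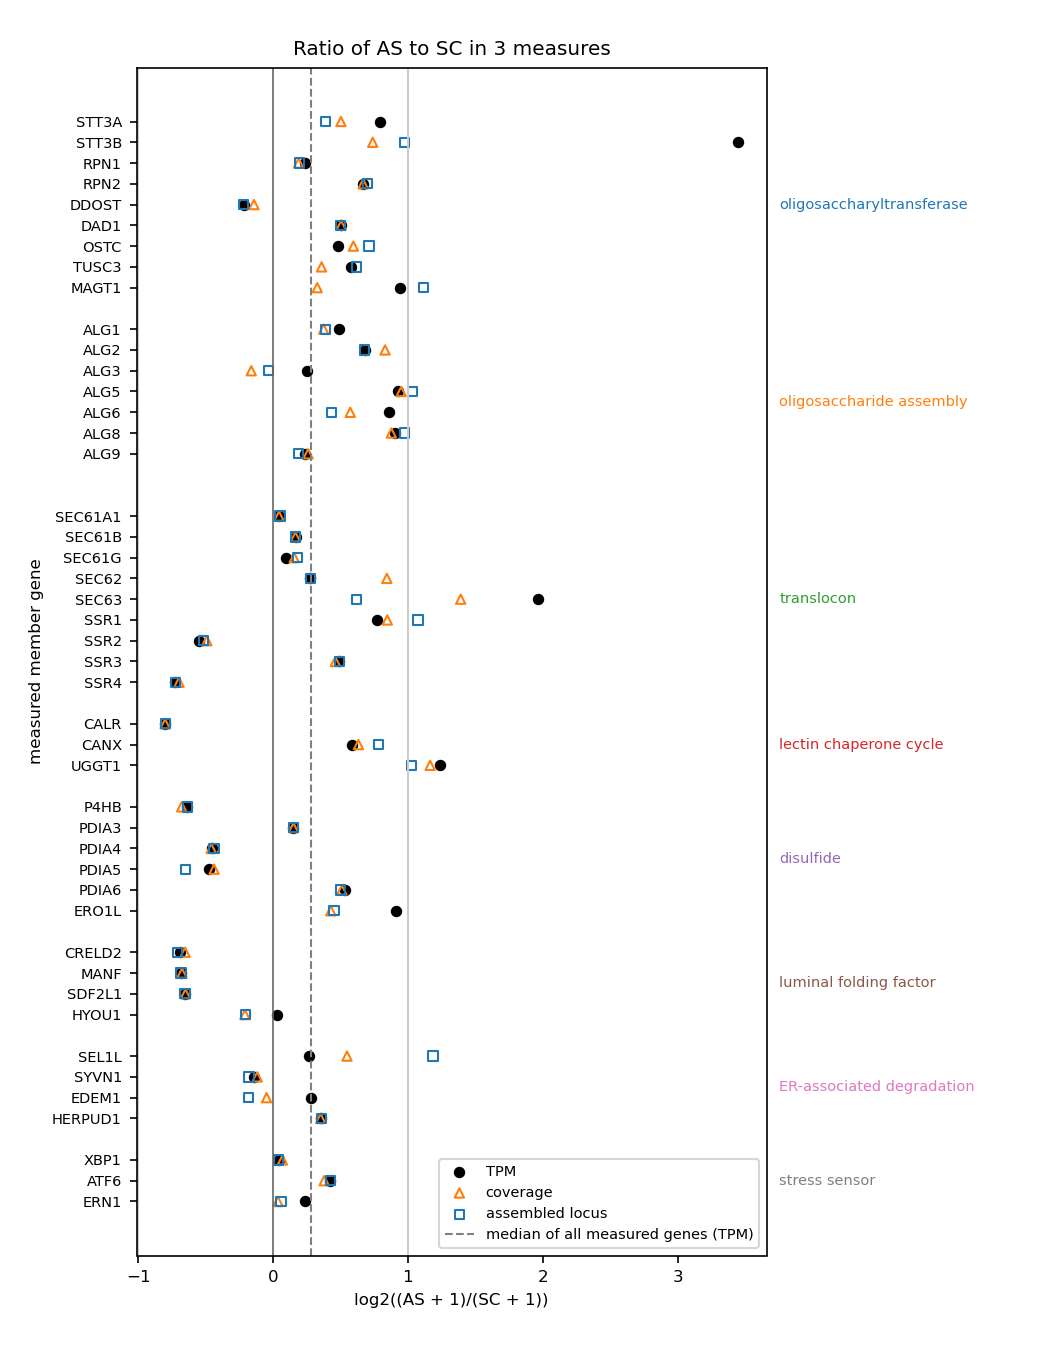
log2((AS + 1)/(SC + 1)) of the 45 measured genes in TPM (filled circles), coverage (triangles) and assembled locus (squares), grouped by role, with the median of all measured genes dashed at 0.28 and a grey line at 1. The 3 measures lie close together for CALR, P4HB, MANF and SDF2L1 and far apart for STT3B, SEC63, MAGT1 and SEL1L.

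The genes of ER-associated degradation and the stress sensors lay near the median of all genes in TPM. SYVN1, the ubiquitin ligase, was at 39.9 TPM in SC and 36.1 in AS (-0.14). Its partner SEL1L was at 4.70 and 5.85 TPM (0.27). Its assembled locus was at 2.01 TPM in SC, over 56.9% of the gene, and at 5.85 TPM in AS, over 100% of it (1.19). HERPUD1, a stress-induced member of the ligase complex, was at 33.2 and 42.9 TPM (0.36). EDEM1, which marks glycoproteins for disposal, was at 3.87 and 4.94 TPM (0.29) but at -0.05 in coverage and -0.18 in the assembled locus. SYVN1 overlaps FAU on its own strand, an abundant gene at 1149 and 1077 TPM.

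XBP1, whose spliced form is the transcription factor made by IRE1, was at 52.1 TPM in SC and 53.8 in AS (0.04). ATF6 was at 5.23 and 7.36 TPM (0.42), and ERN1 at 1.63 and 2.10 TPM (0.24). Gene-level values do not tell spliced from unspliced XBP1 and do not show cleavage of ATF6.

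Many stress-induced genes of the ER carry the ER stress element, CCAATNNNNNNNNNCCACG, to which NF-Y binds at CCAAT and ATF6 or XBP1 at CCACG, or a compact form in which ATTGG, 1 base of any kind and CCACG follow each other. Both forms were defined in promoters of such genes, so their presence here is no independent evidence. They were searched on both strands in the RefSeq promoters (GRCh38.p14), 250 bases before to 50 after each start. RefSeq promoters were found for 41 of the 46 genes, matched through the Ensembl identifier. The first form was in 0.0769% of 35116 promoters, or 0.0916% of 27305 genes, and in 5 of the 41 matched members. The compact form was in 0.0541% of promoters, or 0.0696% of genes, and in 3 other members of the 41. Both forms end in CCACG and begin with the NF-Y motif, in opposite directions, and no member held both. The sites are shown to let the genes be compared, with 12 flanking bases, on the strand that reads in the given direction, and with the fixed bases of the element in capitals.
CALR, chr19:12938372-12938414, minus strand: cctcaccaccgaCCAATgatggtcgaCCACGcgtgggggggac
CRELD2, chr22:49918542-49918584, minus strand: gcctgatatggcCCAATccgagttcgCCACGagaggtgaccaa
PDIA6, chr2:10812841-10812883, minus strand: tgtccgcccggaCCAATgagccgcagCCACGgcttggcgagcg
CANX, chr5:179698766-179698808, plus strand: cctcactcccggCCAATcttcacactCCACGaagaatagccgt
XBP1, chr22:28800591-28800633, minus strand: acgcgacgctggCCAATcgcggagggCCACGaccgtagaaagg
SDF2L1, chr22:21642102-21642136, minus strand: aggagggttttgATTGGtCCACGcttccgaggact
HERPUD1, chr16:56932013-56932047, plus strand: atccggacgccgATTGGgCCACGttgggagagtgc
HYOU1, upstream site, chr11:119057368-119057402, plus strand: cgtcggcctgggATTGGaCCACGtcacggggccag
HYOU1, site nearer the start, chr11:119057262-119057296, plus strand: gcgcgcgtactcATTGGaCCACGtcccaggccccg

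The 8 genes with an element did not share a direction. CALR, CRELD2 and SDF2L1 were lower in AS, whereas CANX, PDIA6 and HERPUD1 were higher and XBP1 and HYOU1 nearly equal. Their log2 ratios ran from -0.80 to 0.58 with a median of 0.04, against a median of 0.29 over the 33 measured genes whose promoters held neither form. Their median transcript GC content was 52.0%, against 47.7% in the 33.

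The other genes of these pathways gave the same mixed picture. A list of 124 further genes of N-glycosylation, translocation, folding, degradation and stress signalling at the ER had 118 measured members. Of these, 8 were at least 2-fold higher in AS in TPM (6.78%, against 16.5% of all measured genes), none was 2-fold lower (against 2.17%), and the median log2 ratio was 0.25. In coverage 4 of the 118 were 2-fold higher (background 9.47%) and none lower (background 0.863%). In the assembled loci 14 of 117 were 2-fold higher (background 16.0%) and 2 lower (background 2.91%), ALG13 (-1.76) and MPDU1 (-3.45), whose log2 ratios in TPM were 0.44 and 0.08 and which are named after their values were seen. Of the 25 other disulfide and chaperone genes, 18 were above 0 and 7 below. HSPA5 (BiP) was at 127 TPM in SC and 197 in AS (0.63) and HSP90B1 (GRP94) at 224 and 339 TPM (0.60). Coding genes of like GC content had medians of 0.66 and 0.77. The more abundant PPIB, at 1420 and 925 TPM (-0.62), and FKBP10, at 818 and 695 TPM (-0.23), were lower, as were CALR and P4HB. HSPA5, HSP90B1, PPIB and FKBP10, like the transcription factors and the kinase named next, were chosen after their values were seen. ATF4 was at 738 and 604 TPM (-0.29), DDIT3, which encodes CHOP, at 60.8 and 74.3 TPM (0.28), and EIF2AK3, which encodes PERK, at 1.14 and 2.43 TPM (0.68).

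By group, the 28 other genes of targeting, translocation and signal cleavage had the highest median (0.46), with SRP9, a protein of the signal recognition particle, at 30.6 and 86.4 TPM (1.47), SPCS2, of the signal peptidase, at 21.3 and 46.1 TPM (1.08) and the translocation factor TRAM1 at 17.2 and 35.3 TPM (0.99). SRP9 was at 1.46 in coverage and 1.44 in the assembled locus, and SPCS2 at 0.48 and 1.17. The 24 other degradation genes had a median of 0.23. In TPM 4 of them were at least 2-fold higher (16.7%, against 16.5% of all measured genes). In coverage 1 was (background 9.47%), and in the assembled loci 5 were (background 16.0%). The 4 past 2-fold in TPM were led by FAF2 (2.37 and 20.2 TPM), UBXN4 (2.94 and 13.7 TPM) and the ubiquitin ligase RNF139 (2.31 and 11.3 TPM). Their log2 ratios of 2.65, 1.90 and 1.89 were 0.57, 0.80 and 1.04 in coverage. In the assembled loci they were 1.58, 1.28 and 0.89.

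The 25 other disulfide and chaperone genes had a median of 0.34, led by DNAJC10 (0.96), TMX1 (0.90) and FKBP2, a prolyl isomerase, at 372 and 219 TPM (-0.76). The 8 other genes of the lectin chaperone cycle had a median of 0.16. LMAN1, a cargo receptor, was at 3.84 and 9.56 TPM (1.12, but 0.90 in coverage and 0.58 in the assembled locus) and its partner MCFD2 at 0.82, whereas UGGT2 was at 1.76 and 0.485 TPM (-0.89), with 0.18 in coverage. The 19 other stress signalling genes had a median of 0.15, with ATF3 at 2.88 and 7.79 TPM (1.18, but 0.61 in coverage and 0.96 in the assembled locus), EIF2S1 at 0.82 and TRIB3 at 133 and 76.9 TPM (-0.78). The 14 other glycosylation genes had a median of 0.05, with DPM1, a subunit of the mannose donor synthase, at 14.6 and 30.1 TPM (just under 2-fold on this scale, at 0.999), DOLPP1 at 0.54 and ALG12 at -0.50.

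The order of the members followed the base composition of their transcripts, as it did for all coding genes. Spearman's rho of the log2 ratio with GC content was -0.74 across the 45 members and -0.64 across 10634 measured coding genes. Genes of 1 library pair are not independent, and members of low GC content were also less abundant (rho of level and ratio -0.62 over the members, -0.33 over coding genes). The 19 members of under 45% GC had a median log2 ratio of 0.77 with none below 0, where 3342 coding genes in that range had 0.85. The 19 members of 45% to 55% had a median of 0.17, against 0.40 in coding genes. The 7 members of at least 55% had a median of -0.63, with 5 below 0, against -0.15 in coding genes. The part of base composition in the differences between roles was not tested.

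The coding genes were split into 10 groups of equal size by GC content. When the median ratio of its group was taken from each member's ratio, 14 of 45 members lay above 0 and 31 below, and the median of the members was -0.26. The lowest were CALR (-0.85), SSR2 (-0.81), PDIA5 (-0.74), MANF (-0.73) and PDIA4 (-0.72). The highest were STT3B (2.55), SEC63 (1.06), UGGT1 (0.58) and RPN2 (0.41). CANX, higher in AS in TPM, was at -0.32 on this scale, PDIA3 at -0.62 and ALG9 at -0.66.

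**Figure D4:**
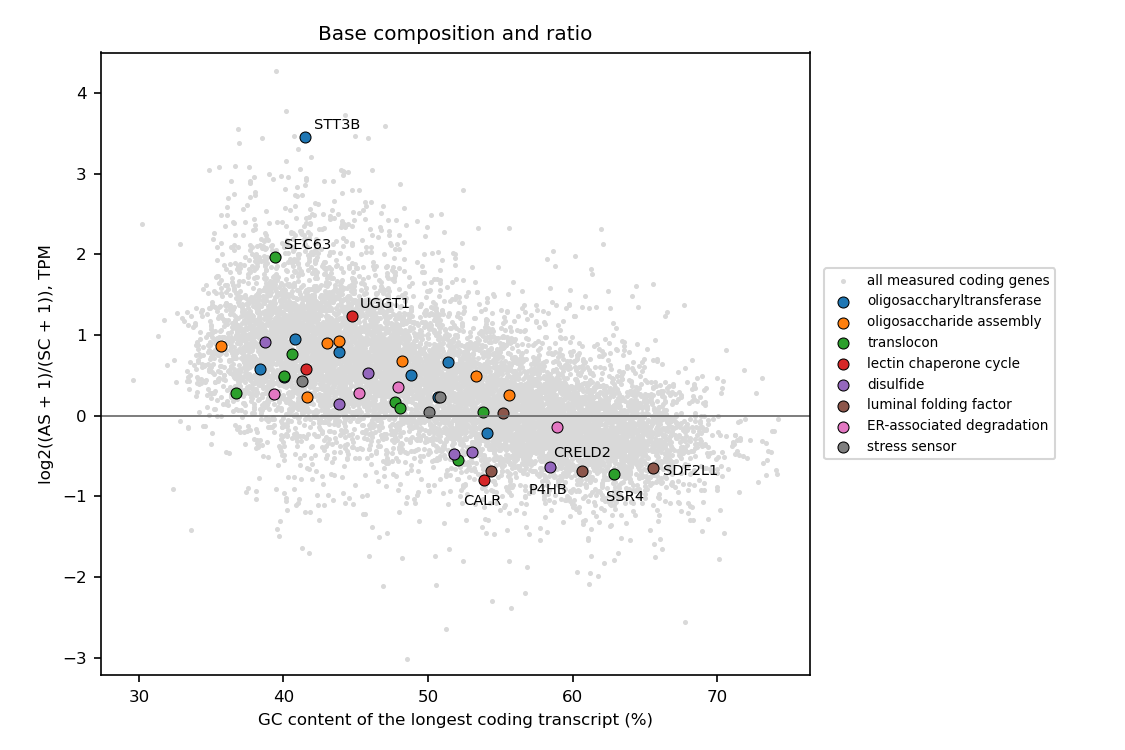
GC content of the longest coding transcript (%) against log2((AS + 1)/(SC + 1)) in TPM, with the 10634 measured coding genes in grey and the 45 measured members coloured by role. CALR, P4HB, CRELD2, SSR4 and SDF2L1 lie at the lower right, below 0, at 53.9% GC or more, and STT3B and SEC63 at the upper left.

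Since the treatment is named for miR-494-3p, its seed matches in the members are given as a description. The mature microRNA from RefSeq (GRCh38.p14, chromosome 14, 101029681 to 101029702, plus strand) has its seed, bases 2 to 8, in capitals.
miR-494-3p: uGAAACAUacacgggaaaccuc
The sites searched on the transcript strand in the 3′ UTR of the longest coding transcript (GENCODE 29) were ATGTTTCA, of 8 bases, and the 2 sites of 7 bases that it contains, TGTTTCA and ATGTTTC. A site was present in 15 of the 45 measured members (33.3%) and in 27.2% of 10525 measured coding genes. The 3 members past 2-fold in TPM with the pseudocount of 1 each had one, whereas ALG5, past 2-fold in the assembled locus, and ALG6, past it with a pseudocount of 0.1, had none. The sites of the 3 are shown with 10 bases on each side and the match in capitals.
STT3B, UTR bases 73 to 79: gctcatgtcgTGTTTCAcagcaaagag
STT3B, UTR bases 510 to 516: atttattttcATGTTTCtctaatgcaa
STT3B, UTR bases 530 to 537: aatgcaaagaATGTTTCAtcaaatgtat
STT3B, UTR bases 587 to 593: aagaagctgcTGTTTCAaagatggacc
SEC63, UTR bases 942 to 949: gactcgttttATGTTTCAatggtgtgtg
SEC63, UTR bases 3758 to 3764: ttagggctatTGTTTCAggtgggggtg
UGGT1, UTR bases 2977 to 2983: agtttactgaATGTTTCccacatggag

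Other members with a site were not past 2-fold in TPM, although MAGT1, SSR1 and SEL1L, with 1 site each, passed it in the assembled loci. ATF6 had 3 sites and a log2 ratio of 0.42, PDIA3 had 2 and 0.15, and PDIA4 had 2 and -0.45. The 15 members with a site had a median log2 ratio of 0.58 and a median transcript GC content of 41.5%, and the 30 without had 0.24 and 50.8%. Over all measured coding genes the medians were 0.63 with a site and 0.19 without, at 44.3% and 53.4% GC. A match of these letters is not evidence of binding.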

How the data were processed

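The data were 1 RNA-seq table per library of NCI-H2030 cells, with no replicates. Per the labels' protocols, RNA was column-purified total RNA and the library kit was directional. The authors deposited coverage (signal), FPKM and TPM columns per row, per the file headers. The TPM column summed to 1000000 over assembled loci and to slightly less over annotated genes, which repeat the same reads. The sources used here name no aligner or counter. The submitters' processing notes name GRCh38 and hg38, but none of the 46 members had the start and end of GENCODE release 29 (GRCh38). The positions are those of GRCh37.

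Rows of 1 symbol were summed, and log2((AS + 1)/(SC + 1)) was computed with a pseudocount of 1 TPM where the 2 libraries averaged 1 TPM or more. Coverage values were divided by their library's most common coverage per FPKM and multiplied by its TPM per FPKM (SC 1.98, AS 2.13). The assembled locus was the one sharing most bases with the gene on its strand. GC content came from the longest coding transcript in GENCODE 29, matched by identifier for every measured member. Any member could be named, and of the 124 other genes the 3 of the largest absolute ratio in each group, apart from the genes marked as named after their values were seen. The members and lists were chosen with earlier results of these data known. Calculations were tested on simulated data and used Python 3.11.15, pandas 2.3.3 and numpy 2.4.6.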

Additional observations from a re-analysis of the deposited data

How the results depend on the processing

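With 1 library per group, depth and replicate error could not be weighed. No paired analysis was possible because each group has 1 library. The count of members at least 2-fold higher was 3 in TPM and 5 both with a pseudocount of 0.1 and in the assembled loci (16.0% of all genes with a locus), and it was 2 or 3 under the other alternatives, the coverage column included (2, against 9.47% of all genes). The count 2-fold lower was 0, but 2 after centring on the median of all genes and 2 after trimmed mean scaling (CALR and SSR4), which moved ratios by 0.28 and 0.29 and left 5.09% and 5.25% of all measured genes 2-fold lower. The median of the members was then -0.0050 and -0.015, and it was -0.26 after taking off the median of each of 10 GC content groups, an alternative chosen after seeing the data. On that GC scale 21 of 45 members moved by over 1.5-fold, against 0 to 3 under the other alternatives. The move on the GC scale is the median of a member's GC group. The 21 are thus the members of groups with a median past 1.5-fold, whatever their own ratios. Centring and trimmed mean scaling move every ratio by 1 amount under 1.5-fold, so no member could count as moved there. Over single members, STT3B was at 4.37 with a pseudocount of 0.1, 2.03 with 5 and 2.80 in FPKM, and SEC63 at 1.34 with a pseudocount of 5. No member past 2-fold changed direction under any alternative, and the cause of the differences between measures was not tested.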
